A study of Mus musculus with 10 samples.

Results

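The transcripts of 10 genes of the canonical Wnt pathway were followed in mouse embryonic stem cells (ESC) with mutations of DIDO3, the longest protein made from the Dido1 gene. These genes were chosen by name, with earlier results of these data known. They are Ctnnb1, the TCF family members Tcf7, Lef1, Tcf7l1 and Tcf7l2, and the Wnt target genes Axin2, Nkd1, Sp5, Cdx1 and Cdx2. Each gene was measured at its 3′ ends. The deposited tables list 43031 features (a UCSC 3′UTR plus the next 2 kb each), and features with identical coordinates were summed here to 28730 sites. The 10 genes hold 37 of these features at 23 of the sites, of 19480 genes that were given a site. Of the 23 sites, 17 were above 0 TPM in every library and could be tested in all 3 comparisons. The other 6 are 5 sites of Tcf7l2, 3 of them listed at 0 in all 9 libraries, and 1 site of Tcf7.

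WT ESC were compared with a DIDO3_exon16 mutant and with a mutant called DIDO3_dCT+HADIDO3, all in the C57BL/6 strain. DIDO3ΔE16 cells lack the floxed exon that only DIDO3 uses, deleted by a Cre driven from the Sox2 promoter, which is active in the early embryo. DIDO3ΔCT+HADIDO3 cells carry a different mutation, a deletion of the DIDO3 C terminus, and were given HA-tagged DIDO3. They differ from DIDO3ΔE16 both in allele and in the added protein, and DIDO3ΔCT cells without it were not analysed here. The cells were grown with serum and LIF, on mitomycin C-treated feeder fibroblasts or on gelatin, and the labels do not tell which library came from which. The labels name 4 WT samples, 2 of which share 1 library, so each group had 3 libraries. Nothing in the labels says that the libraries came from separate cultures or clones, so the p-values measure only the spread between these libraries, which may be technical.

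In canonical Wnt signaling, a ligand binds a Frizzled receptor with LRP5 or LRP6, the complex that marks β-catenin for destruction is stopped, and β-catenin enters the nucleus. There it joins DNA-bound TCF/LEF proteins, which hold target genes silent with Groucho co-repressors when β-catenin is absent. TCF7L1 is known mainly as a repressor and limits the pluripotency genes of ESC, whereas TCF7 and LEF1 are known mainly as activators. Axin2, Nkd1 and Sp5 are direct targets used as readouts of the pathway in many tissues, and their products restrain it. Cdx1 and Cdx2 encode caudal homeobox factors of the posterior embryo, and CDX2 also specifies trophectoderm.

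TCF/LEF proteins bind a short DNA core, and the windows of the member promoters that hold this core are shown because the family and its targets are set side by side here. The searched words were the 4 forms of this core, on both strands of RefSeq promoters (GRCm38.p6, from 250 bases before to 50 after the annotated start). CTTTGAA was found in 5.14% of 32851 promoters. The form CTTTGAT stood in 3.73% of them. The form CTTTGTA stood in 3.63%. The form CTTTGTT stood in 5.85%, and any of the 4 in 16.9%. Different forms cannot begin at the same base of a strand. The table holds 15 promoters of 9 of the 10 genes. Only 3 of the 15 had a match: the Sp5 promoter, 1 of 4 for Lef1 and 1 of 2 for Tcf7l2. Each window of 30 bases is written 5′ to 3′ along the gene's strand, which is the forward strand for all 4 windows, with the match in capitals.
Sp5 at chr2:70474690-70474719, with CTTTGTT on the opposite strand: ttcctagagatAACAAAGacactttgtcac
Sp5 at chr2:70474808-70474837, with CTTTGAT: ggcaaggccccCTTTGATcaggaaaatcca
Lef1 at chr3:131156136-131156165, with CTTTGTA on the opposite strand: caacctcagaaTACAAAGtaggattgcatt
Tcf7l2 at chr19:55895296-55895325, with CTTTGTT: aaaatatcaggCTTTGTTcttttgattgaa
The Sp5 matches begin at positions -222 and -104 relative to the annotated start, the Lef1 match at -147 and the Tcf7l2 match at -14. The Lef1 and Tcf7l2 windows belong to promoters inside the gene. A match describes these letters and does not show a bound site. No match was found in the 300 bases of the Axin2, Nkd1, Cdx2, Ctnnb1, Tcf7 or Tcf7l1 promoters, which says only that the letters are not in this window.

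Coverage of features summed to 1.95 to 2.27 Gb in WT cells, 1.46 to 2.15 Gb in DIDO3ΔE16 and 2.15 to 2.62 Gb in DIDO3ΔCT+HADIDO3. The distal Dido1 site, the last 3′ end of the gene, was at 13.7 to 17.9 TPM in WT cells, 0.307 to 0.546 in DIDO3ΔE16 and 10.9 to 12.1 in DIDO3ΔCT+HADIDO3, lowest in the line that lacks the DIDO3 exon. All 8 ESC markers were above 1 TPM on average in a group, and their median log2 fold change from WT was 0.03 in DIDO3ΔE16, where none was called (limma), and -0.09 in DIDO3ΔCT+HADIDO3, where 1 was called higher and 1 lower. Their sum, 4371 to 5622 TPM in WT cells, 6001 to 6495 in DIDO3ΔE16 and 4782 to 6685 in DIDO3ΔCT+HADIDO3, is not compared, since Esrrb and Nanog jump between libraries of a group. WT replicates 1 and 4 were run on 1 family of flow cells and all other libraries on another, so WT replicate 2-3 is the only WT library that shares its flow cells with the mutants. Values fitted with the flow cell family as a covariate rest on that library for any comparison with WT. The comparison of both mutants with each other lies within 1 family.

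In WT, levels differed widely between the genes. Levels are given as TPM of the main site, the one of each gene with the highest mean over the 9 libraries. TPM is normalized for the length of the site, which includes the added 2 kb. The listed 3′UTR made up 18.6% of that length for Ctnnb1 and 57.8% for Nkd1. The Ctnnb1 site includes 393 bp of coding sequence, and in WT replicate 2-3 the distal Ctnnb1 site was higher (711 against 394 TPM). The order below is therefore one of site signal and only a rough guide to transcript levels. Ctnnb1 was highest at 384 ± 9.55 TPM (SD, n = 3 libraries), followed by Tcf7l1 at 88.4 ± 2.85, Cdx1 at 64.0 ± 4.53 and Axin2 at 21.4 ± 1.04. Lef1 at 10.2 ± 0.986 and Tcf7l2 at 9.78 ± 0.913 followed, and these neighbours did not differ beyond their spread. Sp5 was at 2.60 ± 0.204, Nkd1 at 1.75 ± 0.254 and Cdx2 at 0.705 ± 0.227. The main site of Tcf7 was at 88.9 ± 74.5, a spread too large to rank it by that site. Its reads were divided among 3 overlapping sites, and their sum was 177 ± 3.29, between Ctnnb1 and Tcf7l1.

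**Figure D1:**
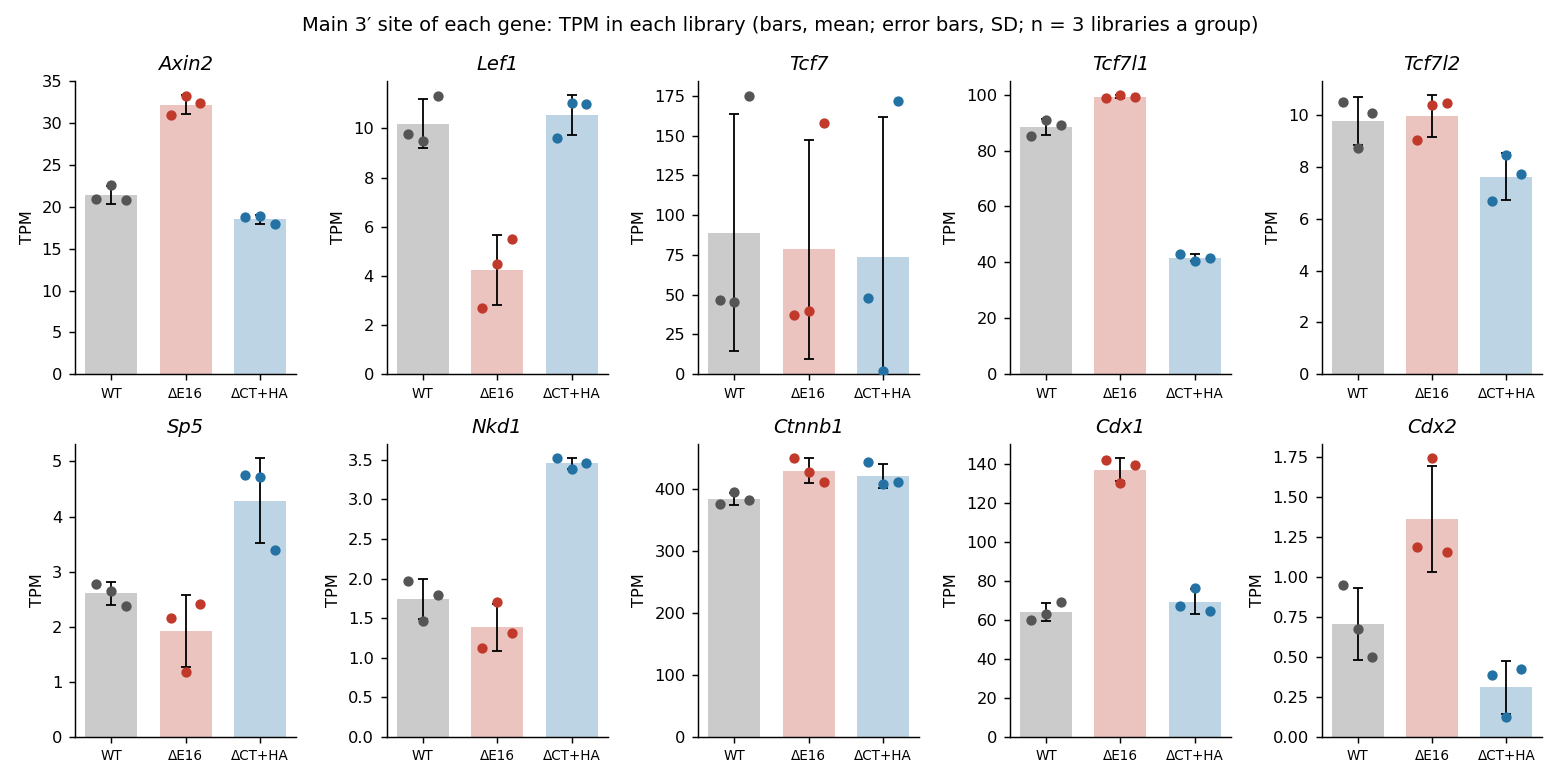
TPM of the main 3′ site of each of the 10 genes, one panel a gene, with the 3 libraries of WT, DIDO3ΔE16 and DIDO3ΔCT+HADIDO3 (ΔCT+HA) as points, their mean as a bar and the SD as an error bar. Axin2 and Cdx1 stand highest in DIDO3ΔE16, Lef1 lowest in DIDO3ΔE16, and Tcf7l1 lowest in DIDO3ΔCT+HADIDO3, where Nkd1 and Sp5 stand highest.

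The comparison of DIDO3ΔE16 with WT asks which transcripts differ between these libraries. It cannot show that a difference depends on the exon of DIDO3. In DIDO3ΔE16, Cdx1 rose 2.15-fold, from 64.0 to 137 TPM on average, and the main site of Lef1 fell to 4.23 TPM from 10.2. Axin2 was 1.503-fold higher, a difference that passed the adjusted p but not the fold threshold. Of the 10 main sites, 2 were called (a log2 fold change of 0.7 or more in either direction with a limma adjusted p under 0.05), 1 higher and 1 lower. The background was 15.1% of 21063 sites called, 10.2% higher and 4.94% lower, so 2 of 10 is near it. At any fold, 3 of 10 had an adjusted p under 0.05, against 33.2% of all sites. In 6 of 10 the groups did not overlap, against 50.8% of all sites. Overlap is counted on the scaled values that entered the fit, here and in the other comparisons. The median absolute log2 fold change was 0.45 over the 10 sites and 0.37 over all sites.

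The comparison of DIDO3ΔCT+HADIDO3 with WT asks how cells reconstituted with DIDO3 stand relative to WT. Here Tcf7l1 fell from 88.4 to 41.6 TPM, and Nkd1 rose 1.98-fold, from 1.75 to 3.46 TPM. Cdx1 and the main Lef1 site, which were called in DIDO3ΔE16, were not called, with log2 fold changes of 0.01 (95% interval -0.24 to 0.26) and -0.05 (-0.32 to 0.21). Again 2 of 10 main sites were called, 1 in each direction, where 17.3% of 20879 sites were called, 10.1% higher and 7.24% lower. At any fold, 4 of 10 had an adjusted p under 0.05, against 38.4% of all sites. The groups did not overlap at 6 of 10, against 54.7% of all sites. The median absolute log2 fold change was 0.53, against 0.40 over all sites. Both comparisons share the WT libraries.

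Compared directly, the mutants differed at 7 of the 10 main sites, 4 higher and 3 lower in DIDO3ΔE16. Axin2, Tcf7l1, Cdx1 and Cdx2 were higher in DIDO3ΔE16, and Lef1, Sp5 and Nkd1 were higher in DIDO3ΔCT+HADIDO3. Of 21172 sites, 27.4% were called in this comparison, 13.9% higher and 13.4% lower. At any fold, 8 of 10 had an adjusted p under 0.05, against 49.2% of all sites. The groups did not overlap at 8 of 10 main sites, against 61.8% of all sites. The median absolute log2 fold change was 1.19, against 0.52 over all sites.

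**Figure D2:**
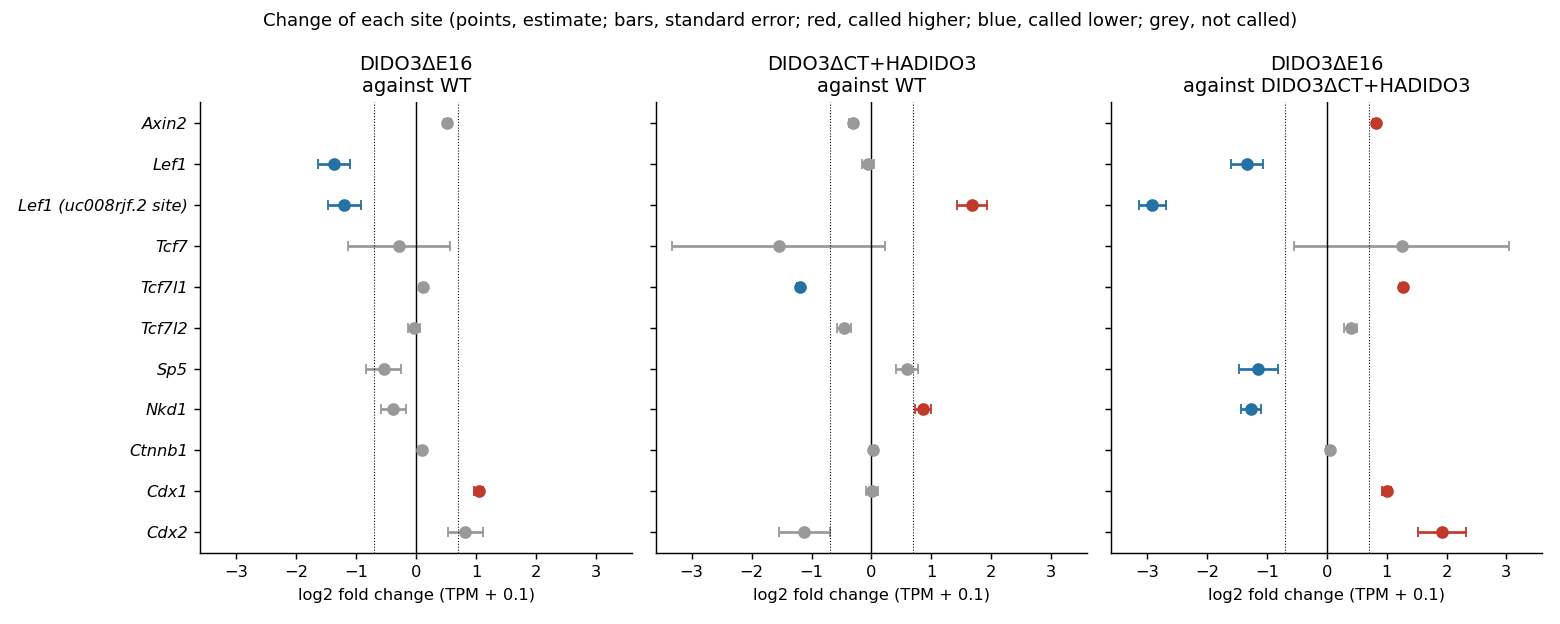
Log2 fold change on the TPM + 0.1 scale, with its standard error, of the main site of each gene and of the long Lef1 site (uc008rjf.2) in the 3 comparisons. Dotted lines mark a log2 fold change of 0.7 in either direction. Of 10 main sites, 2 were called in each comparison with WT and 7 between both mutants. Of all sites, 15.1% were called in DIDO3ΔE16, 17.3% in DIDO3ΔCT+HADIDO3 and 27.4% between the mutants.

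Axin2 encodes a scaffold of the destruction complex and is a feedback inhibitor induced by Wnt in nearly all cells studied. Its site lies on chromosome 11 (mm10, 108949396 to 108952781, forward strand), with 1386 bp of 3′UTR and no other feature overlapping it. Axin2 was at 20.9, 22.6 and 20.8 TPM in WT replicates 1, 2-3 and 4. It was at 31.0, 33.3 and 32.4 TPM in the 3 libraries of DIDO3ΔE16, and at 18.8, 18.9 and 17.9 in those of DIDO3ΔCT+HADIDO3. Every DIDO3ΔE16 library was above every WT library, and every DIDO3ΔCT+HADIDO3 library was below. The log2 fold change from WT was 0.52 ± 0.06 in DIDO3ΔE16 (SE; limma adjusted p = 0.00225) and -0.31 ± 0.06 in DIDO3ΔCT+HADIDO3 (limma adjusted p = 0.0158), both under the fold threshold. With flow cell family as a covariate, these were 0.45 and -0.38 (limma adjusted p = 0.00831 and 0.0113). Between the mutants the log2 difference was 0.82 ± 0.05 (limma adjusted p = 0.000233), and that was called.

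Nkd1 encodes Naked cuticle 1, which binds Dishevelled and dampens the signal. Its site lies on chromosome 8 (88592153 to 88596887, forward strand) and includes 2735 bp of 3′UTR. The coverage was 0.49 to 2.68 reads per base. Nkd1 was at 1.97, 1.47 and 1.79 TPM in WT and at 1.13, 1.70 and 1.32 in DIDO3ΔE16, where the groups overlapped. In DIDO3ΔCT+HADIDO3 it was at 3.53, 3.39 and 3.46 TPM, above every other library. The rise from WT was 0.86 ± 0.14 on the log2 scale (limma adjusted p = 0.00747) and 1.09 with flow cell family as a covariate (limma adjusted p = 0.0161). With 1 TPM added in place of 0.1 it was 0.63, under the fold threshold. In DIDO3ΔE16 the log2 fold change from WT was -0.38 ± 0.21 (limma adjusted p = 0.223), and between the mutants it was -1.26 ± 0.17 (limma adjusted p = 0.00264).

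Sp5 encodes a zinc finger factor of the Sp/KLF family that is bound to many Wnt target genes and represses them. It is the gene whose promoter held both TCF core words printed above. Its site lies on chromosome 2 (70477170 to 70479726, forward strand), and its coverage was 0.679 to 3.20 reads per base. Sp5 was at 2.78, 2.66 and 2.38 TPM in WT, and at 2.15, 1.19 and 2.42 TPM in DIDO3ΔE16, where the groups overlapped as TPM but not after scaling. In DIDO3ΔCT+HADIDO3 it was at 4.76, 4.72 and 3.39, above both other groups. Neither difference from WT was called, with log2 fold changes of -0.54 ± 0.29 in DIDO3ΔE16 (limma adjusted p = 0.217) and 0.59 ± 0.18 in DIDO3ΔCT+HADIDO3 (limma adjusted p = 0.053). Without DIDO3ΔCT+HADIDO3 replicate 3 the latter was 0.76 and was called (limma adjusted p = 0.0158). The mutants differed by -1.14 ± 0.32 (limma adjusted p = 0.0318). That call was lost without DIDO3ΔE16 replicate 1, DIDO3ΔCT+HADIDO3 replicate 1 or DIDO3ΔCT+HADIDO3 replicate 2 (limma adjusted p = 0.0555, 0.0919 and 0.0906).

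Cdx1 was the member with the largest rise in DIDO3ΔE16. Its site lies on chromosome 18 (61016862 to 61019725, reverse strand), with 864 bp of 3′UTR and no overlapping feature on either strand. Cdx1 was at 60.0, 62.9 and 68.9 TPM in WT. It was at 142, 130 and 139 TPM in DIDO3ΔE16, and at 67.2, 76.6 and 64.3 in DIDO3ΔCT+HADIDO3. The lowest DIDO3ΔE16 library was above the highest of the other 6, while WT and DIDO3ΔCT+HADIDO3 overlapped. The log2 fold change of DIDO3ΔE16 from WT was 1.04 ± 0.08 (limma adjusted p = 0.000804) and 1.06 with flow cell family as a covariate (limma adjusted p = 0.00349). Between the mutants the difference was 1.0 ± 0.08 (limma adjusted p = 0.000494).

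Cdx2 was close to the limit of detection in every group. Its site (chromosome 5, 147298900 to 147301841, reverse strand) was covered by 0.0775 to 0.999 reads per base. Cdx2 was at 0.946, 0.674 and 0.496 TPM in WT cells, at 1.19, 1.75 and 1.16 in DIDO3ΔE16, and at 0.384, 0.121 and 0.421 in DIDO3ΔCT+HADIDO3. The 3 groups did not overlap. Neither comparison with WT passed the adjusted p, with log2 fold changes of 0.82 ± 0.29 in DIDO3ΔE16 (limma adjusted p = 0.0845) and -1.12 ± 0.42 in DIDO3ΔCT+HADIDO3 (limma adjusted p = 0.0958). The mutants differed by 1.93 ± 0.40 (limma adjusted p = 0.0122). With 1 TPM added in place of 0.1 this difference was 0.85, still called (limma adjusted p = 0.00597), and with the replicate number as a block the call was lost (limma adjusted p = 0.0566).

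Markers of other cells moved with some of these values. The counts of called markers stand beside 10.2% of all sites called higher and 4.94% lower in DIDO3ΔE16. In DIDO3ΔCT+HADIDO3 these shares were 10.1% and 7.24%. In bulk RNA, fewer cells of a type and less RNA per cell cannot be told apart. Of 9 feeder fibroblast markers, 7 were tested in DIDO3ΔE16 and 6 were higher than in WT. Their sum was 51.6 to 58.9 TPM in WT cells, 109 to 113 in DIDO3ΔE16 and 53.6 to 57.4 in DIDO3ΔCT+HADIDO3, where most of it was Thy1 (54.4 TPM). Of the 4 tested in DIDO3ΔCT+HADIDO3, Thy1 was higher than in WT (19.1 TPM) and 3 were lower: Col1a1 was at 11.7 TPM in WT and 1.14 in DIDO3ΔCT+HADIDO3, Col1a2 at 18.25 and 0.239, and S100a4 at 2.44 and 0.151. Col3a1 and Twist2 were at 0 in all 3 libraries of DIDO3ΔCT+HADIDO3, and Lum was at 0 in all libraries of WT and DIDO3ΔE16. The part of such cells in the higher Axin2, Cdx1 and Cdx2 of DIDO3ΔE16 and in the differences between the mutants was not tested. It was also not tested for the higher Rspo2 of DIDO3ΔE16 given further on. Nor was it tested for the lower Wnt5a, Rspo3 and Wls and the near-absent Rspo2 of DIDO3ΔCT+HADIDO3 given there. Of 6 hindgut and posterior Hox genes, 5 were tested in DIDO3ΔE16 and 2 were higher, Hoxb9 (3.11 TPM in WT and 45.4 in DIDO3ΔE16) and Hoxc8 (0.508 and 1.54). Hoxb9, whose site overlaps another feature on its strand, was also higher in DIDO3ΔCT+HADIDO3 (7.67 TPM, log2 fold change 1.20, limma adjusted p = 0.00682), where Cdx1 was not called. The list summed to 11.6 to 13.3 TPM in WT cells, 34.9 to 64.6 in DIDO3ΔE16 and 8.57 to 20.4 in DIDO3ΔCT+HADIDO3. Of 8 tested trophectoderm markers, 2 were higher (Eomes and Gata3) and 2 lower (Tfap2c and Krt7) in DIDO3ΔE16. That list summed to 325 to 338 TPM in WT cells, 228 to 235 in DIDO3ΔE16 and 327 to 336 in DIDO3ΔCT+HADIDO3, and Elf5 was at 0 in 2 WT libraries. Of 8 tested primitive streak and mesoderm markers, 2 were higher in DIDO3ΔE16 (T and Eomes) and 2 lower in DIDO3ΔCT+HADIDO3 (Eomes and Evx1). That list summed to 375 to 524 TPM in WT cells, 99.2 to 525 in DIDO3ΔE16 and 47.4 to 569 in DIDO3ΔCT+HADIDO3, and no marker of it was at 0. In most libraries the larger part of that sum was Tbx6, which was at 3.42, 423 and 438 TPM in DIDO3ΔE16 and at 527, 2.82 and 468 in DIDO3ΔCT+HADIDO3, so the sum is not compared between groups. All 6 primitive endoderm markers were lower in DIDO3ΔCT+HADIDO3 and 4 were lower in DIDO3ΔE16, and none was at 0. They summed to 68.0 to 77.7 TPM in WT cells, 23.7 to 33.3 in DIDO3ΔE16 and 23.02 to 26.93 in DIDO3ΔCT+HADIDO3, and their part in the lower Lef1 of DIDO3ΔE16 was not tested.

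Tcf7l1, the only TCF factor here with a single site, fell in DIDO3ΔCT+HADIDO3, 2.125-fold by mean TPM before scaling. Its site lies on chromosome 6 (72624371 to 72627359, reverse strand). Tcf7l1 was at 85.2, 90.8 and 89.0 TPM in WT and at 98.8, 99.9 and 99.4 in DIDO3ΔE16. In DIDO3ΔCT+HADIDO3 it was at 42.9, 40.4 and 41.4 TPM. The 3 libraries of each group lay close together, and no groups overlapped. The log2 fold change from WT was -1.19 ± 0.05 in DIDO3ΔCT+HADIDO3 (limma adjusted p = 0.000192), or -1.22 with flow cell family as a covariate (limma adjusted p = 9.45e-05). It was 0.11 ± 0.04 in DIDO3ΔE16 (limma adjusted p = 0.111), and the mutants differed by 1.27 ± 0.04 (limma adjusted p = 3.65e-05).

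The site of Tcf7l1 is listed as 2 identical features, and the tables divided its reads between them unevenly. In WT replicate 1 the features held 40.5 and 44.8 TPM, in WT replicates 2-3 and 4 they held 0 and 90.8 or 89.0, and all 3 libraries of DIDO3ΔCT+HADIDO3 put everything on the second. Taken as single features, the more abundant one had a log2 fold change of -0.87 in DIDO3ΔCT+HADIDO3, which was not called (limma adjusted p = 0.111). The sum is free of this division.

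Tcf7l2 encodes the TCF factor best known from the intestinal epithelium. Of its 8 sites on chromosome 19, the main one (55931858 to 55935655, forward strand) ends at the distal 3′ end, where 4 other sites overlap it. It was at 10.5, 8.75 and 10.1 TPM in WT cells, at 9.03, 10.4 and 10.5 in DIDO3ΔE16, and at 6.68, 8.46 and 7.74 in DIDO3ΔCT+HADIDO3. DIDO3ΔCT+HADIDO3 was lower than WT in every library, by a log2 fold change of -0.46 ± 0.12 (limma adjusted p = 0.0319) that was under the fold threshold. Within the flow cell family it was -0.30 (limma adjusted p = 0.191). In DIDO3ΔE16 it was -0.03 ± 0.10 (95% interval -0.29 to 0.22). Of the other sites, uc008hye.2 was at 1.12 ± 0.238 TPM in WT cells, 1.51 ± 0.255 in DIDO3ΔE16 and 1.40 ± 0.598 in DIDO3ΔCT+HADIDO3, and the remaining 6 had means under 1 TPM in each group.

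Lef1, which activates Wnt targets and is itself one, was measured at 4 sites along chromosome 3 (forward strand). The main site, uc008rjg.2 (131223156 to 131226357), is the last 3′UTR of the gene. The long site, uc008rjf.2 (131204968 to 131226357, of 2 exons), ends at the same position and holds all 3202 bp of the main site. The other ends lie upstream, uc008rjj.2 (131184958 to 131190082) and uc008rji.2 (131115595 to 131119387). The main site was at 9.77, 9.50 and 11.3 TPM in WT cells, at 2.69, 4.49 and 5.51 in DIDO3ΔE16 and at 9.60, 11.05 and 10.98 in DIDO3ΔCT+HADIDO3. Every DIDO3ΔE16 library was below all others.

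The fall of the main Lef1 site in DIDO3ΔE16 was -1.37 ± 0.27 on the log2 scale relative to WT (limma adjusted p = 0.0162), and between the mutants the difference was -1.33 ± 0.27 (limma adjusted p = 0.0105). The call against WT was lost without WT replicate 4 (-1.28, limma adjusted p = 0.0515) and with flow cell family as a covariate (-1.27, limma adjusted p = 0.0503). Summed over both distal sites, Lef1 was at 10.2, 9.74 and 11.7 TPM in WT cells, at 2.80, 4.596 and 5.58 in DIDO3ΔE16 and at 10.98, 12.3 and 12.6 in DIDO3ΔCT+HADIDO3. On this sum the log2 fold change of DIDO3ΔE16 from WT was -1.38 (limma adjusted p = 0.00845).

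The 3′ ends of Lef1 did not move together. The upstream end uc008rjj.2 was at 1.07 ± 0.0944 TPM in WT cells, 1.28 ± 0.179 in DIDO3ΔE16 and 1.04 ± 0.0677 in DIDO3ΔCT+HADIDO3, while the distal sum fell in DIDO3ΔE16. The distal sum was 8.56 to 10.6 times the level of uc008rjj.2 in WT cells, 2.19 to 5.04 times in DIDO3ΔE16 and 10.04 to 12.67 times in DIDO3ΔCT+HADIDO3. The ratio did not overlap between DIDO3ΔE16 and the other groups, and was not tested. It rests on a coverage of uc008rjj.2 of 0.555 to 0.838 reads per base. The end uc008rji.2 stayed under 0.6 TPM in all libraries.

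The long Lef1 site showed a pattern of its own. It was picked because it was called and its mean reached 1 TPM, which it did in DIDO3ΔCT+HADIDO3 alone. It was at 0.403, 0.236 and 0.405 TPM in WT cells, at 0.116, 0.110 and 0.0650 in DIDO3ΔE16 and at 1.38, 1.20 and 1.65 in DIDO3ΔCT+HADIDO3. The rise in DIDO3ΔCT+HADIDO3 was 1.68 ± 0.25 (limma adjusted p = 0.00516), or 2.07 with flow cell family as a covariate (limma adjusted p = 0.00381). It comprised little of the Lef1 signal, and the distal sum had a log2 fold change of 0.07 from WT (limma adjusted p = 0.591). The fall in DIDO3ΔE16 was -1.20 ± 0.28 (limma adjusted p = 0.0256) at a coverage of 0.0413 to 0.0630 reads per base. It was lost without WT replicate 1, WT replicate 4 or any single DIDO3ΔE16 library (limma adjusted p of 0.0549 to 0.0771), and was -0.81 with flow cell family as a covariate (limma adjusted p = 0.0985). It depended on the value added before the logarithm, and was -0.30 with 1 TPM added, under the fold threshold, and -1.80 with 0.01. Between the mutants the long site differed by -2.91 ± 0.22 (limma adjusted p = 0.000352), which was -1.11 with 1 TPM added and -3.73 with 0.01, all called.

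**Figure D3:**
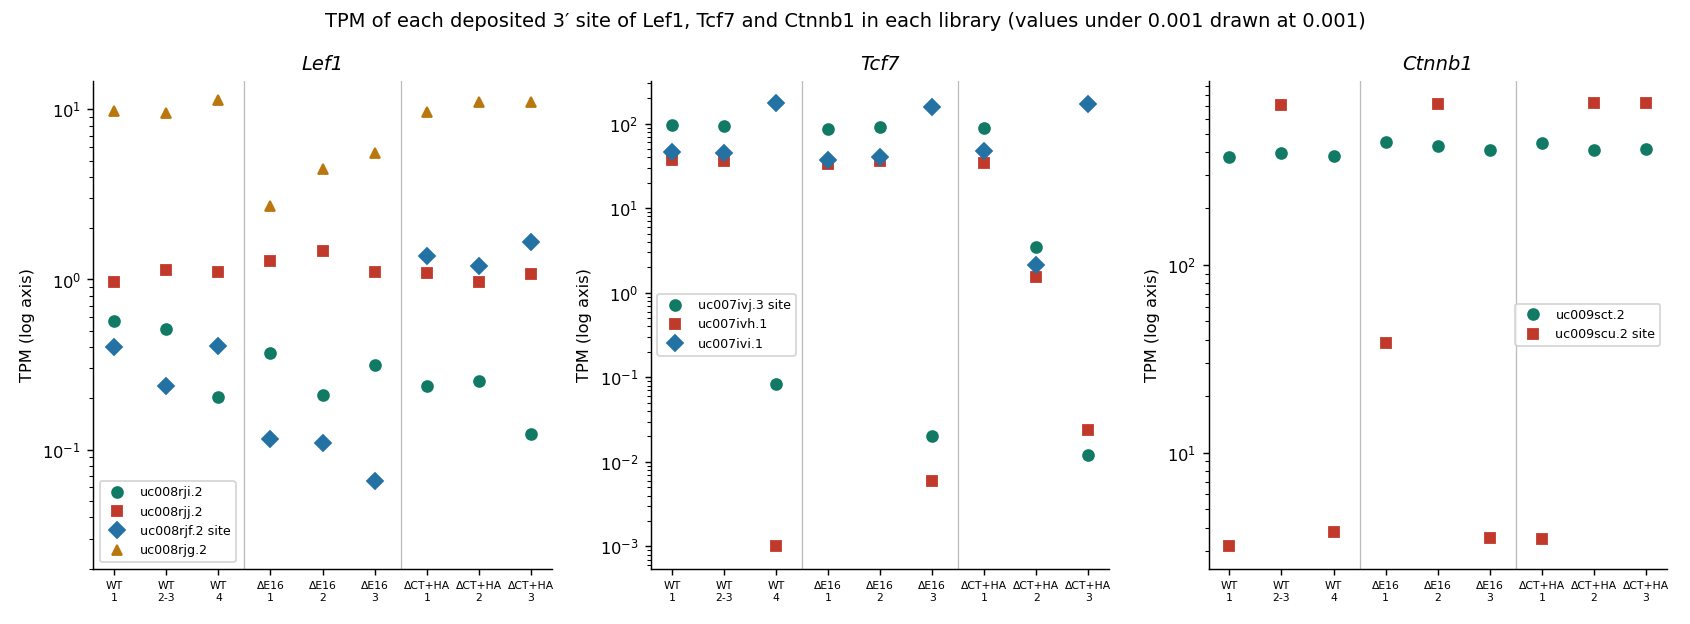
TPM on a log axis of every deposited 3′ site of Lef1, Tcf7 and Ctnnb1 in each of the 9 libraries, with groups divided by vertical lines and numbers under the axis naming the replicate. Lef1 uc008rjg.2 is lowest in the 3 DIDO3ΔE16 libraries, whereas the Tcf7 sites and Ctnnb1 uc009scu.2 jump between libraries of the same group.

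Tcf7, which encodes TCF1, was listed at 3 overlapping sites on chromosome 11 (52250283 to 52253882, reverse strand) that share 3294 bp, the whole of the shortest one. The tables assigned its reads to them differently from library to library. The main site, uc007ivi.1, was at 46.6, 45.2 and 175 TPM in WT cells, at 37.2, 40.0 and 158 in DIDO3ΔE16 and at 47.6, 2.15 and 172 in DIDO3ΔCT+HADIDO3. In the 3 libraries where it was high, the other sites were at 0.083 TPM or less. The 3 sites added up to 180, 174 and 175 TPM in WT and to 157, 168.5 and 158 in DIDO3ΔE16, and the groups did not overlap. On that sum DIDO3ΔE16 differed from WT by -0.19 (limma adjusted p = 0.00981), under the fold threshold. In DIDO3ΔCT+HADIDO3 the sum was 172, 7.13 and 172 TPM, with replicate 2 far below the others, so no change can be read there (log2 fold change of -1.67, limma adjusted p = 0.400).

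Ctnnb1 encodes β-catenin, the transducer of the pathway, which is also part of adherens junctions. Its main site, uc009sct.2 (chromosome 9, 120955991 to 120958447, forward strand), includes 393 bp of Ctnnb1 coding sequence. It was at 376, 394 and 382 TPM in WT cells, at 451, 427 and 411 in DIDO3ΔE16 and at 444, 408 and 412 in DIDO3ΔCT+HADIDO3. After scaling, the groups overlapped, with log2 fold changes from WT of 0.10 ± 0.05 in DIDO3ΔE16 (95% interval -0.03 to 0.23) and 0.03 ± 0.06 in DIDO3ΔCT+HADIDO3 (-0.11 to 0.17). Both intervals lie well within the fold threshold of 0.7.

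The distal Ctnnb1 site (120959518 to 120962507), which holds the end of the full-length 3′UTR, switched between 2 levels. It was at 3.17, 711 and 3.80 TPM in WT cells, at 38.2, 718 and 3.52 in DIDO3ΔE16 and at 3.49, 726 and 725 in DIDO3ΔCT+HADIDO3. High libraries occurred in all 3 groups and differed from each other by little. The site is listed as 3 identical features and shares 54 bp with a Ulk4 feature on the opposite strand. The main Ulk4 site, a different one, was at 0.206 TPM in WT. The distal Ctnnb1 site entered the fits, but no difference is read from it.

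The other genes of the pathway were examined in 10 lists by role. They hold 115 genes besides the 10 members, of which 114 had a site. In DIDO3ΔE16, 13 of 105 tested genes were higher and 5 lower than in WT, which is 17.1% called against 15.1% of all sites. In DIDO3ΔCT+HADIDO3, 10 of 103 were higher and 14 lower, 23.3% against 17.3%. Between the mutants, 26 of 104 were higher and 12 lower in DIDO3ΔE16, 36.5% against 27.4%. The medians of their log2 fold changes were 0.06, -0.11 and 0.27, where those of all sites were -0.01, -0.01 and 0.01. These shares were not tested against the background. Of all sites, 10.2% were called higher and 4.94% lower in DIDO3ΔE16, and 10.1% and 7.24% in DIDO3ΔCT+HADIDO3. The counts of single lists given below are small, stand beside these shares and were not tested either. Some genes reported below as not called jump between libraries of a group, as the distal Ctnnb1 site does, so that a missing call says nothing of whether they changed. They are Porcn, Lrp6, Aes, Ctnna1, Ccnd1, Tbx3, Nanog and Esrrb. Ctnna1, for example, was at 6.93, 505 and 532 TPM in WT cells, and Ccnd1 at 39.6, 31.2 and 297 in DIDO3ΔE16.

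**Figure D4:**
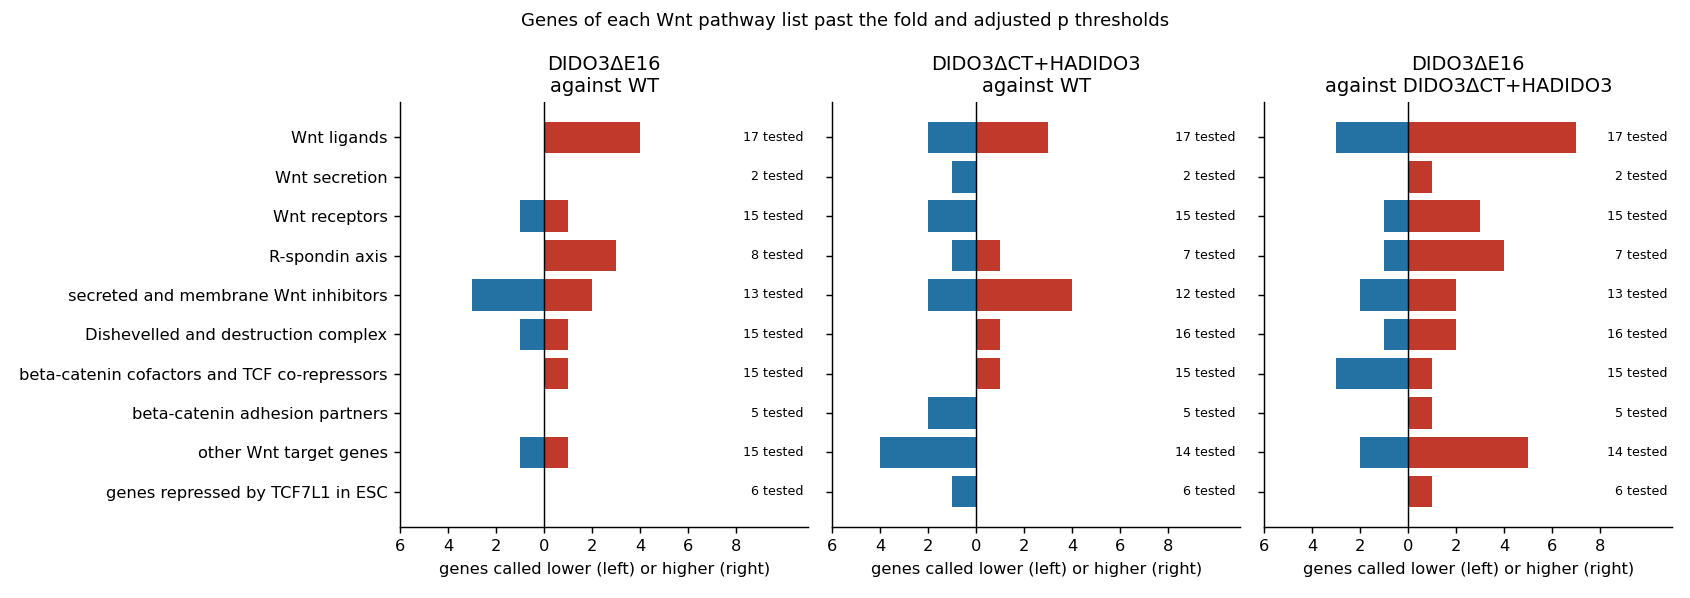
Number of genes in each Wnt pathway list called higher (right, red) or lower (left, blue) in the 3 comparisons, with the number tested at the right of each row. Of 17 Wnt ligands, 4 were called higher and 0 lower in DIDO3ΔE16, and 3 higher and 2 lower in DIDO3ΔCT+HADIDO3 (limma). Of 14 other Wnt targets, 4 were lower in DIDO3ΔCT+HADIDO3. Among all sites, 10.2% were called higher and 4.94% lower in DIDO3ΔE16, and 10.1% and 7.24% in DIDO3ΔCT+HADIDO3.

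Among 17 tested Wnt ligands, 4 were higher in DIDO3ΔE16, none lower, and in DIDO3ΔCT+HADIDO3 3 were higher and 2 lower. Wnt4 rose in DIDO3ΔE16 from 0.526 ± 0.151 to 2.67 ± 0.225 TPM (log2 fold change 2.11, limma adjusted p = 0.00233). Wnt10b rose in DIDO3ΔCT+HADIDO3 from 0.283 ± 0.103 to 10.02 ± 1.41 TPM (4.66, limma adjusted p = 0.000295). Wnt8a, a ligand of the primitive streak, and Wnt5a, a noncanonical ligand, both fell in DIDO3ΔCT+HADIDO3. Wnt8a went from 5.80 ± 0.914 to 0.841 ± 0.144 TPM (-2.74, limma adjusted p = 0.000712) and Wnt5a from 2.55 ± 0.408 to 0.382 ± 0.133 (-2.57, limma adjusted p = 0.00202). The most abundant ligands that were not called in either comparison with WT were Wnt7b and Wnt9a, at 8.62 ± 0.135 and 7.67 ± 0.493 TPM in WT. Of the 2 genes of ligand secretion, Wls fell in DIDO3ΔCT+HADIDO3 from 10.6 ± 1.15 to 4.61 ± 1.02 TPM (-1.30, limma adjusted p = 0.00538), and Porcn was not called.

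Of 15 receptors, 1 was higher and 1 lower in DIDO3ΔE16 and 2 were lower in DIDO3ΔCT+HADIDO3. Fzd7, the most abundant Frizzled in WT, fell in DIDO3ΔE16 from 199 ± 4.51 to 124 ± 8.77 TPM (-0.75, limma adjusted p = 0.000682), and Fzd6 rose from 5.81 ± 0.282 to 10.1 ± 0.568 (0.72, limma adjusted p = 0.00221). Fzd2 and Fzd8 fell in DIDO3ΔCT+HADIDO3, both by 0.77 on the log2 scale (limma adjusted p = 0.0493 and 0.0430). Without scaling, no receptor was called lower in either mutant, so the falls of Fzd7, Fzd2 and Fzd8 were lost, and 1 receptor was called higher in each. Fzd5 and Lrp6 were not called. In the R-spondin axis, whose ligands stabilize Frizzled receptors, 3 of 8 tested genes were higher in DIDO3ΔE16, none lower. Rspo4 rose in both mutants, from 2.97 ± 0.636 TPM in WT to 13.8 ± 1.02 in DIDO3ΔE16 and 8.19 ± 0.628 in DIDO3ΔCT+HADIDO3. Lgr6 rose in DIDO3ΔE16 (6.24 ± 0.733 to 15.3 ± 0.403 TPM), as did Rspo2 (3.45 ± 0.285 to 6.81 ± 0.694). Rspo2 was at 0, 0.079 and 0.09 TPM in DIDO3ΔCT+HADIDO3, where the library at 0 kept it out of the test. Rspo3 fell in DIDO3ΔCT+HADIDO3 (0.561 ± 0.259 to 0.0787 ± 0.0125 TPM), and Lgr4 and Znrf3 were not called.

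Secreted and membrane inhibitors moved in both directions. In DIDO3ΔE16, 2 of 13 were higher and 3 lower, and in DIDO3ΔCT+HADIDO3 4 of 12 were higher and 2 lower. Dkk1, which blocks LRP5 and LRP6 and is a Wnt target itself, fell in both, from 2.08 ± 0.728 TPM to 0.818 ± 0.199 and 0.122 ± 0.0487. Sfrp1, which binds Wnt ligands, fell in DIDO3ΔCT+HADIDO3 from 294 ± 12.7 to 112 ± 1.66 TPM (-1.49, limma adjusted p = 7.37e-05). Draxin rose in both mutants, from 1.67 ± 0.0722 to 5.56 ± 0.400 and 4.56 ± 0.495 TPM. Sfrp4 fell in DIDO3ΔE16 from 2.57 ± 0.613 to 0.961 ± 0.124 TPM, and the abundant Kremen1 and Dkk4 were not called.

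Of the Dishevelled and destruction complex genes, 1 of 15 was higher and 1 lower in DIDO3ΔE16, and 1 of 16 was higher in DIDO3ΔCT+HADIDO3. Gsk3b, the kinase that marks β-catenin, rose in DIDO3ΔE16 from 62.7 ± 3.90 to 128 ± 5.49 TPM (0.97, limma adjusted p = 0.000455), and the scaffold Axin1 fell from 5.17 ± 0.415 to 2.42 ± 0.780 (-1.16, limma adjusted p = 0.0166). Btrc rose in DIDO3ΔCT+HADIDO3 (0.70, limma adjusted p = 0.0174), while Csnk1a1 and Tnks2 were not called. Of 15 β-catenin cofactors and TCF co-repressors, Pygo1 was higher in DIDO3ΔE16 (0.83, limma adjusted p = 0.0432) and Tle2, a Groucho protein whose site shares bases with other features, was higher in DIDO3ΔCT+HADIDO3 (1.15, limma adjusted p = 0.0129). Ctbp2 and Aes were not called. Of 5 adhesion partners of β-catenin, none was called in DIDO3ΔE16 and 2 fell in DIDO3ΔCT+HADIDO3. Cdh1, encoding E-cadherin, went from 594 ± 10.2 to 353 ± 3.66 TPM (-0.85, limma adjusted p = 0.000107) and Cdh2 from 3.41 ± 0.302 to 2.15 ± 0.375 (-0.75, limma adjusted p = 0.0156). Ctnna1 and Ctnnd1 were not called.

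Of the Wnt targets beyond the 10 members, 4 of 14 were lower in DIDO3ΔCT+HADIDO3, none higher. In DIDO3ΔE16, 1 of 15 was higher and 1 lower. Myc fell in DIDO3ΔCT+HADIDO3 from 14.5 ± 2.73 to 4.04 ± 0.355 TPM (-1.90, limma adjusted p = 0.00101), and Sp8, a relative of Sp5, fell from 1.98 ± 0.0266 to 0.285 ± 0.0762 (-2.53, limma adjusted p = 0.000789). T, the mesoderm factor Brachyury, rose in DIDO3ΔE16 from 2.17 ± 0.310 to 4.51 ± 0.756 TPM (0.96, limma adjusted p = 0.0171). Ccnd1 and Tbx3 were not called. In the last list, of 6 genes known to be repressed by TCF7L1 in ESC, none was called in DIDO3ΔE16, and in DIDO3ΔCT+HADIDO3 none was called higher and Nr0b1 was lower (58.9 ± 3.72 to 37.8 ± 2.60 TPM, -0.74, limma adjusted p = 0.0011). Without scaling, that call was lost. Tfcp2l1 was higher than in WT by 0.33 in DIDO3ΔCT+HADIDO3 and by 0.39 in DIDO3ΔE16 (limma adjusted p = 0.00371 and 0.000692), both under the fold threshold. The median log2 fold change of the list was 1.23 in DIDO3ΔE16 and 1.48 in DIDO3ΔCT+HADIDO3, against -0.01 over all sites, and it rests on Nanog, Esrrb and Tbx3, which could not be called in either direction. In DIDO3ΔCT+HADIDO3 Nanog had a log2 fold change of 2.68 ± 2.33 (SE), Esrrb of 2.96 ± 3.20 and Tbx3 of 2.63 ± 1.12. In WT cells, Nanog was at 664, 676 and 3.10 TPM and Esrrb at 5.18, 1155 and 8.78. Of the called genes named in these lists, the sites of Wnt10b, Wls, Sfrp4 and Tle2 share bases with other features on their strand, and those of Axin1, Gsk3b and Tle2 with features on the opposite strand, so their reads may be split or shared.

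Of the members whose main site was called against WT, Cdx1 and Nkd1 had a nearest gene called in the same comparison. Lef1 and Tcf7l1 did not. Of all sites, 15.1% were called in DIDO3ΔE16 and 17.3% in DIDO3ΔCT+HADIDO3. Slc6a7, 4640 bp from Cdx1, rose in DIDO3ΔE16 (0.76, limma adjusted p = 0.0143). It was at 5.69 ± 0.832 TPM in WT cells, 10.13 ± 1.29 in DIDO3ΔE16 and 9.615 ± 0.850 in DIDO3ΔCT+HADIDO3, where its log2 fold change of 0.65 (limma adjusted p = 0.0151) was under the fold threshold and Cdx1 was not called. Snx20, 31679 bp from Nkd1, rose in DIDO3ΔCT+HADIDO3 (1.41, limma adjusted p = 0.0238) at low levels, from 0.325 ± 0.148 to 1.07 ± 0.267 TPM. In DIDO3ΔCT+HADIDO3, Vti1a, the neighbour of Tcf7l2, was lower (-0.78, limma adjusted p = 0.000451), and Cep112, the neighbour of Axin2, was higher (2.78, limma adjusted p = 0.0195). Hadh, Skp1a and Tgoln1, the neighbours of Lef1, Tcf7 and Tcf7l1, were not called against WT. Erich2 near Sp5 and Urad near Cdx2 could not be tested in any comparison.

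Patterns over the 9 libraries were compared as the root mean square difference of scaled log2(TPM + 0.1), each site centred on WT. Of 18471 sites of other genes, those most like Axin2 were Pick1, Sec14l4 and Lhpp, with differences of 0.052, 0.056 and 0.059. Those most like the main Lef1 site were Amdhd2, Evc and Polr3g, at 0.187, 0.191 and 0.195. Those most like Cdx2 were Ctss, Dpep2 and Casr, at 0.248, 0.292 and 0.3. Ctss and Casr reached 1 TPM in DIDO3ΔE16 alone (1.53 and 1.02), where Cdx2 was also highest. Among low sites the filter therefore favours this likeness. The difference includes the spread between single libraries, and Cdx2 was covered by only 0.0775 to 0.999 reads per base. The differences are therefore not compared between the 3 genes. Pick1, for example, was at 36.8 ± 0.281 TPM in WT cells, 53.8 ± 2.18 in DIDO3ΔE16 and 32.1 ± 1.21 in DIDO3ΔCT+HADIDO3.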

How the data were processed

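RNA-seq of mouse ESC was analysed in 9 libraries, 3 each of WT, DIDO3ΔE16 and DIDO3ΔCT+HADIDO3. WT samples 2 and 3 point to the same library, which was used once as WT replicate 2-3. The authors aligned reads to mm10 with BWA (0.7.15), removed duplicates and ran StringTie (1.3.3) on UCSC 3′UTRs extended by 2 kb. The command line names no strand option, so reads of overlapping genes on opposite strands may not be told apart. The deposited TPM values are length-normalized shares within a library. The deposited coverage, a signal in reads per base, was used for depth only.

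Features were named from GENCODE M21 (42367 of 43031), and those with identical coordinates were summed to a site. Sites above 0 TPM in every library of a comparison were scaled by a trimmed mean (30% at each end). The log2(TPM + 0.1) values were fitted in limma (3.58.1, R 4.3.3) with trend and robust moderation, 2-sided, over the groups compared, and p-values were adjusted by Benjamini-Hochberg over all sites tested. Fold changes on this scale understate changes of low sites. Python (3.11.15) with numpy (2.4.6), pandas (2.3.3), scipy (1.17.1) and matplotlib (3.10.9) made tables and plots.

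The members and lists were chosen with earlier results of these data known. Named were the members, the nearest gene and any gene overlapping a member site, from each list up to 4 called genes (mean of at least 1 TPM in a group, largest change) and the 2 most abundant uncalled genes, and the 3 sites most like Axin2, Lef1 and Cdx2. Marker genes were named beside the results they move with. The other settings tried changed the pseudocount (0.01 or 1), the low-value filter, the scaling (absent, or by quantiles), the libraries fitted together, the covariates (flow cell family, replicate number), the moderation, the thresholds (0.01, 1.5-fold) and the way features were summed, and left out single libraries. Restricting the test to sites that share no base on their strand was added after seeing the data. Raw reads were not analysed here.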

Additional observations from a re-analysis of the deposited data

Results flagged for a closer look

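The lines differed from each other at 7 of 10 main sites, as tested by fitting DIDO3ΔE16 against DIDO3ΔCT+HADIDO3 (limma, adjusted over 21172 sites). The effects of both lines relative to WT differ there. The long Lef1 site also differed, but it was picked because it was called. Its mean reached 1 TPM in DIDO3ΔCT+HADIDO3 alone (1.41, against 0.348 in WT and 0.097 in DIDO3ΔE16), so it is not counted. Higher in DIDO3ΔE16 were Cdx2 (log2 difference 1.93), Tcf7l1 (1.27), Cdx1 (1.0) and Axin2 (0.82). Lower were the long Lef1 site (-2.91), the main Lef1 site (-1.33), Nkd1 (-1.26) and Sp5 (-1.14). With 1 TPM or 0.01 TPM added in place of 0.1, Cdx2 was at 0.85 and 2.28 and the long Lef1 site at -1.11 and -3.73, and the Cdx2 call was lost with the replicate number as a block. On scaled values, Axin2, Cdx2, Tcf7l1, Sp5 and the long Lef1 site lay on opposite sides of WT in every library of the lines. Tcf7l1 and Nkd1 were called against WT in DIDO3ΔCT+HADIDO3, and Cdx1 and the main Lef1 site in DIDO3ΔE16. All libraries of the direct comparison of the lines were run on 1 flow cell family. Of all tested sites, 27.4% were called in it.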

How the results depend on the processing

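In all 22 alternatives, Cdx1 in DIDO3ΔE16 (log2 fold change 0.98 to 1.14) and Tcf7l1 in DIDO3ΔCT+HADIDO3 (-1.22 to -0.87) kept their direction. The Cdx1 call was lost with the replicate block alone, and the Tcf7l1 call with that block and on single features. Of 10 main sites, 2 were called in DIDO3ΔE16, but 1 with flow cell family as a covariate, 1 at an adjusted p of 0.01, 1 of 7 where sites share no base on their strand, and 1 to 2 when 1 library was left out (1 without WT replicate 4). For DIDO3ΔCT+HADIDO3 it was 1 with a pseudocount of 1 and 1 on single features, and 2 to 3 when 1 library was left out. Between the mutants it was 4 at an adjusted p of 0.01 and 6 to 7 when 1 library was left out. Of all sites, 2112 in place of 3191 were called in DIDO3ΔE16 at an adjusted p of 0.01. The replicate number shared by groups does not pair the libraries: deviations of same-numbered libraries correlated at 0.003 to 0.034, and not every library correlated best with its own number. With the replicate number as a block, limma called 0 sites and 0 main sites in either comparison with WT (without the block, 9131 and 9877 sites had an unadjusted p under 0.05), and 5183 sites and 5 main sites between the mutants. In the comparisons with WT, WT replicate 4 and replicate 3 of the mutant have no partner of their number. The block takes them out of the contrast and leaves few degrees of freedom. A call lost there, as for Cdx1 and Tcf7l1, therefore cannot decide whether the difference is stable.

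Signs turned at values that were not called. For Tcf7l2 in DIDO3ΔE16 they were 0.03 without scaling, 0.12 with flow cell family, 0.01 summed over the gene and 0.03 over overlapping features, and -0.11 to 0.03 when 1 library was left out. For Tcf7 they were 0.39 in DIDO3ΔE16 with flow cell family, and when 1 library was left out -0.95 to 0.37 in DIDO3ΔE16, -2.88 to 0.23 in DIDO3ΔCT+HADIDO3 and -0.54 to 2.58 between the mutants. For the main Lef1 site in DIDO3ΔCT+HADIDO3 they were 0.05 without scaling, with flow cell family and summed over the gene, 0.07 over overlapping features, 0.02 with the block, and -0.10 to 0.03 when 1 library was left out. When 1 library was left out, Cdx1 in DIDO3ΔCT+HADIDO3 was at -0.06 to 0.08 and Ctnnb1 at -0.02 to 0.06. Ctnnb1 was at 0.00 with flow cell family, and at -0.45 between the mutants when summed over the gene. A single Tcf7l1 feature gave -0.51 in DIDO3ΔE16. Without scaling, all sites shifted relative to WT by 0.06 in DIDO3ΔE16 and by 0.10 in DIDO3ΔCT+HADIDO3. The cause of each change was not tested. Coverage near or under 1 read per base limits Cdx2, the long Lef1 site, the upstream Lef1 ends and, in some libraries, Nkd1 and Sp5.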

Other observations

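Ratios between members within a library were not part of the comparisons. Tcf7l1 was 7.59 to 9.33 times the distal Lef1 sum in the 3 WT libraries, 17.8 to 35.3 times in DIDO3ΔE16 and 3.28 to 3.91 times in DIDO3ΔCT+HADIDO3. The ratio stood on opposite sides of WT in the mutants. In DIDO3ΔE16 the ratio differed from WT mainly through Lef1, and in DIDO3ΔCT+HADIDO3 through Tcf7l1. Axin2 was 0.234 to 0.249 times Tcf7l1 in WT, 0.314 to 0.333 in DIDO3ΔE16 and 0.432 to 0.467 in DIDO3ΔCT+HADIDO3, so this ratio was higher in both mutants. The ratios are descriptions chosen after their values were seen, with no test.

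Farther neighbours, also chosen after their values were seen, moved with or without the member. Nod2, 52431 bp from Nkd1, rose with it in DIDO3ΔCT+HADIDO3, from 0.547 ± 0.0156 to 6.21 ± 0.313 TPM (log2 fold change 3.19, limma adjusted p = 0.000112). Pdgfrb, 8951 bp from Cdx1, rose in DIDO3ΔE16 (1.73, limma adjusted p = 0.000269) and in DIDO3ΔCT+HADIDO3 (2.82, limma adjusted p = 5.34e-05), where Cdx1 was not called. Apcdd1, a membrane Wnt inhibitor, was listed at 0 TPM in 7 of 9 libraries and at 25.3 and 26.5 in DIDO3ΔE16 replicates 2 and 3. Its site shares bases with another feature on its strand, and it was not tested.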
